A study of Neurospora crassa with 12 samples.

Results

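The role of the transcription factor CYS-3 while some sulfate was still present was examined in *Neurospora crassa* by comparing *cys-3-* with wild-type cells after 4 h in medium with 24 μM sulfate. The comparison used 6 of the 12 libraries of the series, 3 from each strain, selected by the strain and the sulfate level in the sample labels. Of 9758 genes measured in every library, 5035 were abundant enough to test. Wild type was FGSC 4200, and in the Δ*cys-3* (here *cys-3-*) mutant a hygromycin resistance cassette took the place of part of *cys-3*. By the study's methods both strains are *mat a*, and the mutant is a single homokaryon that needs methionine to grow. Mycelia of both strains came from 24-h cultures that, by the labels, contained methionine, and were washed before the 4 h in 24 μM sulfate. The other 6 libraries came from the same strains after 4 h without sulfur, and they are used here only to set the difference between the strains in 24 μM sulfate beside the one in starvation. Each library measured poly(A) RNA from one culture, and expression is given as deposited, as FPKM, the number of sequenced fragments scaled to transcript length and to the size of the library.

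CYS-3 is a basic leucine zipper protein that activates genes for taking up and using sulfur. When sulfur is plentiful, the protein is marked for degradation by a ubiquitin ligase that contains the F-box protein SCON-2 and the Skp1 homolog SCON-3. Assimilation starts with sulfate permeases and runs through ATP sulfurylase, adenylyl-sulfate kinase, phosphoadenosine phosphosulfate (PAPS) reductase and sulfite reductase to sulfide, which is built into cysteine and methionine. Cells short of sulfur also use sulfate esters, taurine and other sulfonates as sources.

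The libraries held 7.33 to 11.2 megareads as implied by the confidence bounds in the files. Replicate 2 of wild type stood apart from the other wild-type libraries. Its depth was 7.62 megareads, against 11.2 and 10.5 megareads in replicates 1 and 3 and 7.33 to 8.003 megareads in the mutant. Genes of the mitochondrial chromosome made up 0.166% of its summed FPKM, against 0.0554% and 0.0771% in the other wild-type libraries and 0.131% to 0.152% in the mutant. Its deviations from the group mean were also the widest (SD of 0.187 over genes on the log2 scale, against 0.114 to 0.151 in the other libraries).

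Expression of 8 genes differed at least 2-fold between the strains, 6 lower and 2 higher in the mutant. Calling a gene required an adjusted p under 0.05 in limma (Benjamini-Hochberg over the tested genes), at least a 2-fold ratio of the group means, and 10 FPKM or more in one of these means. With the test left aside, 14 genes (0.278%) had such a ratio and level. These 8 genes are 0.159% of the genes tested (0.119% lower and 0.0397% higher). The 6 lower genes encode a sulfate permease (*cys-13*), a methionine permease (*aap-7*), 3 enzymes on the way from sulfate to sulfide (*cys-11*, *cys-5* and *cys-2*) and a glutathione S-transferase (*gst-4*). The 2 higher genes were the cysteine dioxygenase gene *cys-22* and NCU03534, a gene of unknown function beside *cys-3*. In all 8 genes the 3 mutant libraries lay entirely above or entirely below the 3 wild-type libraries, as they did for 14.9% of the genes tested (7.45% in each direction). The number of genes with an adjusted p under 0.05, at any ratio, was 12, or 0.238% of the genes tested, and the median difference over the tested genes was -0.0032 on the log2(FPKM + 1) scale. All 8 genes were also called when replicate 2 of wild type was left out, but then 710 genes had an adjusted p under 0.05 and 37 were called, 10 lower and 27 higher. In bulk RNA, fewer cells with a transcript and less transcript per cell cannot be told apart.

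**Figure D1:**
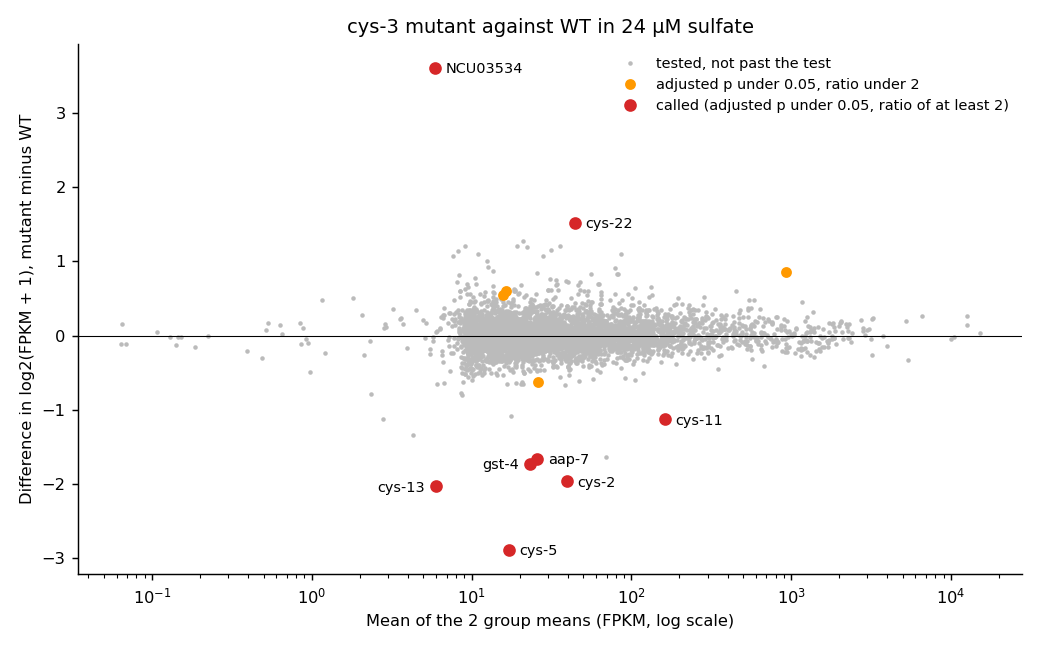
Each point is 1 of the 5035 tested genes. The x axis is the mean of the wild-type and *cys-3-* group means in 24 μM sulfate (FPKM, log scale) and the y axis the difference in log2(FPKM + 1), mutant minus wild type. The 8 called genes are red and named, and the 4 genes with an adjusted p under 0.05 and a ratio under 2 are orange.

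The *cys-3* transcript itself does not check the deletion, because the remainder of the gene is still transcribed and the FPKM covers the whole locus (chromosome II, 326313 to 331203). It had 66.3, 66.6 and 58.7 FPKM in replicates 1 to 3 of wild type and 74.9, 77.2 and 79.7 FPKM in the mutant. All mutant libraries were above all wild-type libraries, a difference of 0.27 ± 0.08 on the log2(FPKM + 1) scale (SE) that did not pass the test (adjusted p = 0.232). Its locus overlaps that of NCU03535 by 1563 bp, and the reads carry no strand. Transcripts of *scon-2*, whose product recognizes CYS-3 for degradation, had 15.8, 15.4 and 16.1 FPKM in wild type and 11.9, 12.8 and 13.3 FPKM in the mutant. The mutant libraries were all lower, 1.24-fold in the means, and the gene did not pass the test (adjusted p = 0.290). For *scon-3* the values were 238, 305 and 256 FPKM in wild type and 289, 335 and 325 FPKM in the mutant, with overlap (adjusted p = 0.274).

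Transport was the first step with lower expression in the mutant. The sulfate permease gene *cys-13* (NCU03235; chromosome I, 5001646 to 5005327) had 5.03, 11.2 and 14.98 FPKM in wild type and 1.48, 1.71 and 1.55 FPKM in the mutant. The lowest wild-type library was still well above the highest mutant library, although wild type itself varied widely. Group means were 10.4 ± 5.03 and 1.58 ± 0.119 FPKM (SD, n = 3), 6.60-fold lower in the mutant (adjusted p = 0.00381). This call was lost without replicate 3 of wild type, the library with the highest level, since neither mean then reached 10 FPKM (log2 ratio of -2.37, adjusted p = 0.0149 by limma). It was also lost when limma was fitted to the 6 libraries alone (adjusted p = 0.0988) and with voom on implied reads (adjusted p = 0.124).

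NCU04433, or *cys-14*, which encodes the other sulfate permease (chromosome IV, 3375754 to 3380167), was low in both strains, with 1.36, 5.26 and 6.41 FPKM in wild type and 0.931, 0.977 and 1.74 FPKM in the mutant. The means of 4.35 and 1.22 FPKM differed 3.58-fold, lower in the mutant. Both were under 10 FPKM, so the gene could not be called. The groups overlapped, and the difference of -1.13 ± 0.33 (log2(FPKM + 1), SE; 95% interval -1.85 to -0.41) did not pass the test (adjusted p = 0.231). Starved wild-type cells had 356 ± 51.6 FPKM of this transcript (SD, n = 3). The gap between the strains there was 38.9% of the gap between the starved strains for *cys-13* and 0.883% for *cys-14*.

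Expression of the methionine permease gene *aap-7* (NCU04942; chromosome IV, 813368 to 815602) was 19.5, 44.6 and 57.5 FPKM in wild type and 11.9, 11.7 and 9.57 FPKM in the mutant. The wild-type libraries spanned almost 3-fold, while the mutant libraries lay close together. The ratio of means was 3.67, lower in the mutant (adjusted p = 0.0296). This was the least stable of the 8 calls, with an adjusted p of up to 0.332 among 17 alternatives, 7 of which lost it. They included leaving out replicate 3 of wild type or any 1 mutant library.

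None of the other 5 sulfur transporter genes tested was called. Of these, *aap-10*, *trm-50* and *aap-23* had means under 10 FPKM in both strains and could not be called. The methionine permease gene *aap-10* had 6.40, 7.84 and 8.84 FPKM in wild type and 6.60, 7.38 and 6.54 FPKM in the mutant (difference of -0.14 on the log2(FPKM + 1) scale, 95% interval -0.43 to 0.15, adjusted p = 0.567). The chromate transporter gene *trm-50* had 1.46 to 2.78 FPKM over the 6 libraries, and the high-affinity methionine permease gene *aap-23* had at most 0.197 FPKM and no library over 3 implied reads. The sulfate transporter genes *cys-23* and NCU09642 differed by 1.02-fold and 1.08-fold. For all 8 transporter genes together, 2 were called lower and 0 higher (0.119% and 0.0397% over all tested genes), and the median difference was -0.13.

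Sulfate, once imported, is activated by the ATP sulfurylase CYS-11. The *cys-11* transcript (NCU01985; chromosome I, 1774672 to 1778095) had 186, 210.1 and 274 FPKM in wild type and 96.3, 103 and 102 FPKM in the mutant. The means of 223 ± 45.5 and 100.3 ± 3.45 FPKM (SD, n = 3) differed 2.22-fold (adjusted p = 2.7e-04). It was the most abundant of the 6 lower genes, and without replicate 3 of wild type its ratio fell just under 2-fold (log2 ratio of -0.98, adjusted p = 9.9e-05 by limma).

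The next gene in the pathway, the adenylyl-sulfate kinase gene *adsk-1* (NCU09896), did not share this pattern. It had 189.9, 258 and 247 FPKM in wild type and 196, 276 and 289 FPKM in the mutant. The ranges overlapped almost fully, and the 95% interval of the difference on the log2(FPKM + 1) scale was -0.18 to 0.43 (adjusted p = 0.641).

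*cys-5* (NCU02005), encoding PAPS reductase, had the greatest decrease among the called genes (locus on chromosome I, 1702853 to 1704727). Its values were 19.9, 31.5 and 41.5 FPKM in wild type and 3.45, 3.08 and 2.89 FPKM in the mutant, with means of 30.97 ± 10.8 and 3.14 ± 0.284 FPKM (SD, n = 3). It was thus 9.87-fold lower in the mutant (adjusted p = 7.1e-06), and it was called under all 17 alternatives, with log2 ratios of -3.54 to -3.04 when each library was left out in turn. The *cys-5* locus shares 222 bp with NCU02006, which had 9.84 ± 0.187 FPKM in wild type and 8.79 ± 0.400 FPKM in the mutant (SD, n = 3).

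Sulfite reductase makes sulfide in the last step. Expression of *cys-2* (NCU04077; chromosome VI, 2667605 to 2671421) was 50.3, 55.5 and 84.2 FPKM in wild type and 13.5, 12.7 and 19.8 FPKM in the mutant, or 4.12-fold lower (adjusted p = 2.7e-04). All 17 alternatives called it. A further gene of the list from sulfate to sulfide, *cys-4* (NCU05238; chromosome IV, 5650802 to 5656284), had 64.7, 60.9 and 82.2 FPKM in wild type and 47, 43.95 and 45.9 FPKM in the mutant. Its mutant libraries were all lower, by 1.52-fold in the means, and its adjusted p of 0.0506 lay just above the threshold. Of the 5 genes from sulfate to sulfide, 3 were therefore called lower and 0 higher (0.119% and 0.0397% over all tested genes), with a median difference of -1.13 against -0.0032 over all tested genes.

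Sulfur-containing molecules further from this route were represented by 1 gene in each direction. Glutathione S-transferases join the sulfur-containing tripeptide glutathione to other compounds. The gene *gst-4* (NCU10521; chromosome VII, 836334 to 837892) had 47.4, 30.1 and 31.8 FPKM in wild type and 11.02, 10.8 and 8.47 FPKM in the mutant, 3.60-fold lower (adjusted p = 2.7e-04). Its locus overlaps that of NCU06938 by 160 bp, a gene with at most 0.150 FPKM in wild type. The *gst-1* and *gst-2* genes gave -0.35 (adjusted p = 0.379) and 0.22 (adjusted p = 0.358) on the log2(FPKM + 1) scale, and of the 4 genes in the glutathione list *gst-4* alone passed the test.

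Cysteine dioxygenase oxidizes cysteine and so removes it from the pool that can be used for growth. Its gene *cys-22* (NCU06625; chromosome IV, 1842954 to 1844833) had 22, 28.3 and 17.5 FPKM in wild type and 64.4, 72.5 and 60.7 FPKM in the mutant. The means of 22.6 ± 5.41 and 65.9 ± 6.06 FPKM (SD, n = 3) differed 2.91-fold, higher in the mutant (adjusted p = 7.3e-04), and the call held under all 17 alternatives. It was the single called gene among 42 tested genes of cysteine and methionine metabolism, whose median difference was -0.09. The cystathionine γ-lyase gene *cys-16* had 64.98, 42.4 and 65.1 FPKM in wild type and 42.5, 31.3 and 36.7 FPKM in the mutant, which overlapped (adjusted p = 0.257). For *met-23*, which encodes the methylthioribose-1-phosphate isomerase of methionine salvage, they were 30.2, 20.2 and 25.4 and 19.5, 15.8 and 16.7 FPKM (adjusted p = 0.225).

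**Figure D2:**
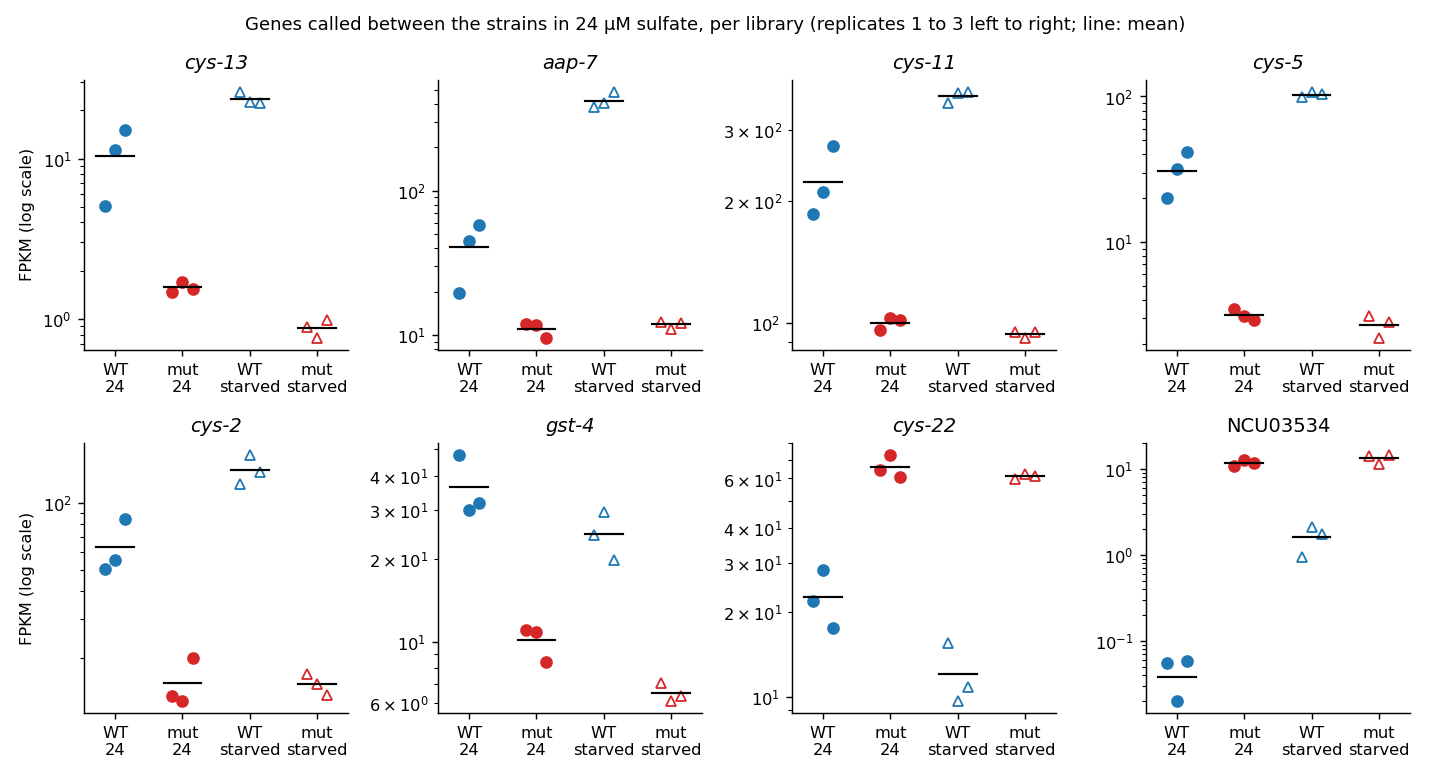
FPKM (log scale) of the 8 called genes in each of the 12 libraries, replicates 1 to 3 from left to right in each group, with the mean as a line. Filled circles are cells in 24 μM sulfate and open triangles starved cells, blue for wild type and red for the *cys-3-* mutant, and the value of 0 for NCU03534 is drawn at the foot of its axis. In 24 μM sulfate the *cys-5* libraries sit between 19.9 and 41.5 FPKM in wild type and between 2.89 and 3.45 FPKM in the mutant.

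Wild-type libraries varied more than mutant libraries for each of the 6 lower genes (by SD in FPKM). An SD in FPKM can grow with the mean, and these genes were called for their higher wild-type means. How much of the wider spread goes with the higher means was not tested. Of the 6 lower genes, 5 (*cys-13*, *aap-7*, *cys-11*, *cys-5* and *cys-2*) were lowest in replicate 1 and highest in replicate 3 of wild type, an order found in 8.54% of the tested genes. The exception was *gst-4*, highest in replicate 1. None of the 6 had that order in the mutant, where 16.3% of the tested genes did. Without replicate 3 of wild type 3 genes were called lower instead of 6. This order was noticed after the values were seen and is a description of 3 libraries.

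Genes for alternative sulfur sources showed no called difference in 24 μM sulfate. Of 14 such genes, 11 were tested and 0 were called, and the median difference was -0.13. Only *gdc-2*, *gdc-3* and *xdh-2* reached a mean of 10 FPKM in 24 μM sulfate in a strain. The other tested genes entered the test through starved wild type and could not be called in 24 μM sulfate. The mutant libraries were entirely lower in 4 of the 11 (36.4%; *chol-16*, *tdo-3*, *tdo-5* and *suc-2*) and entirely higher in 2 (18.2%; *gdc-2* and *xdh-2*), against 7.45% each way over all tested genes. The arylsulfatase gene *ars-1* (NCU06041) had 0.378, 0.183 and 0.188 FPKM in wild type and 0.0437, 0.0466 and 0.273 FPKM in the mutant, against a mean of 105 FPKM in starved wild type. The 95% interval of its strain difference was -0.66 to 0.34 on the log2(FPKM + 1) scale (adjusted p = 0.718).

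Choline sulfatase frees sulfate from choline sulfate, and its gene *chol-16* (NCU08364) was measurable in both strains. It had 7.34, 7.80 and 9.99 FPKM in wild type and 6.73, 7.11 and 6.98 FPKM in the mutant (95% interval -0.57 to 0.11, adjusted p = 0.435). The taurine dioxygenase genes *tdo-2*, *tdo-3* and *tdo-4* and *suc-2* stayed under 3 FPKM in all 6 libraries, with adjusted p values of 0.327, 0.665, 0.954 and 0.854. In *tdo-5* the mutant libraries were all lower, at 5.08, 3.92 and 4.53 FPKM against 6.59, 7.21 and 9.26 FPKM in wild type, without passing the test (adjusted p = 0.242). The *suc-2* values rest on at most 5 implied reads in a wild-type library.

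The methanesulfonate monooxygenase gene *mox-7* had 2.54, 3.22 and 2.35 FPKM in wild type and 3.51, 2.44 and 2.97 FPKM in the mutant, and the groups overlapped (adjusted p = 0.815). Glutamate decarboxylase, encoded by *gdc-2*, had 5.33, 8.21 and 5.93 FPKM in wild type and 8.96, 13.8 and 8.43 FPKM in the mutant (adjusted p = 0.257), and *xdh-2*, for a predicted xanthine dioxygenase, had 17.7, 18.1 and 17.03 and 18.2, 23.1 and 19.9 FPKM (adjusted p = 0.290). The *gdc-3* gene differed by 1.08-fold (adjusted p = 0.744). The remaining genes *tdo-1*, *gdc-1* and *aso-1* stayed under the minimum for testing, at 0.12, 1.37 and 0.0464 FPKM in their highest library from 24 μM sulfate.

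**Figure D3:**
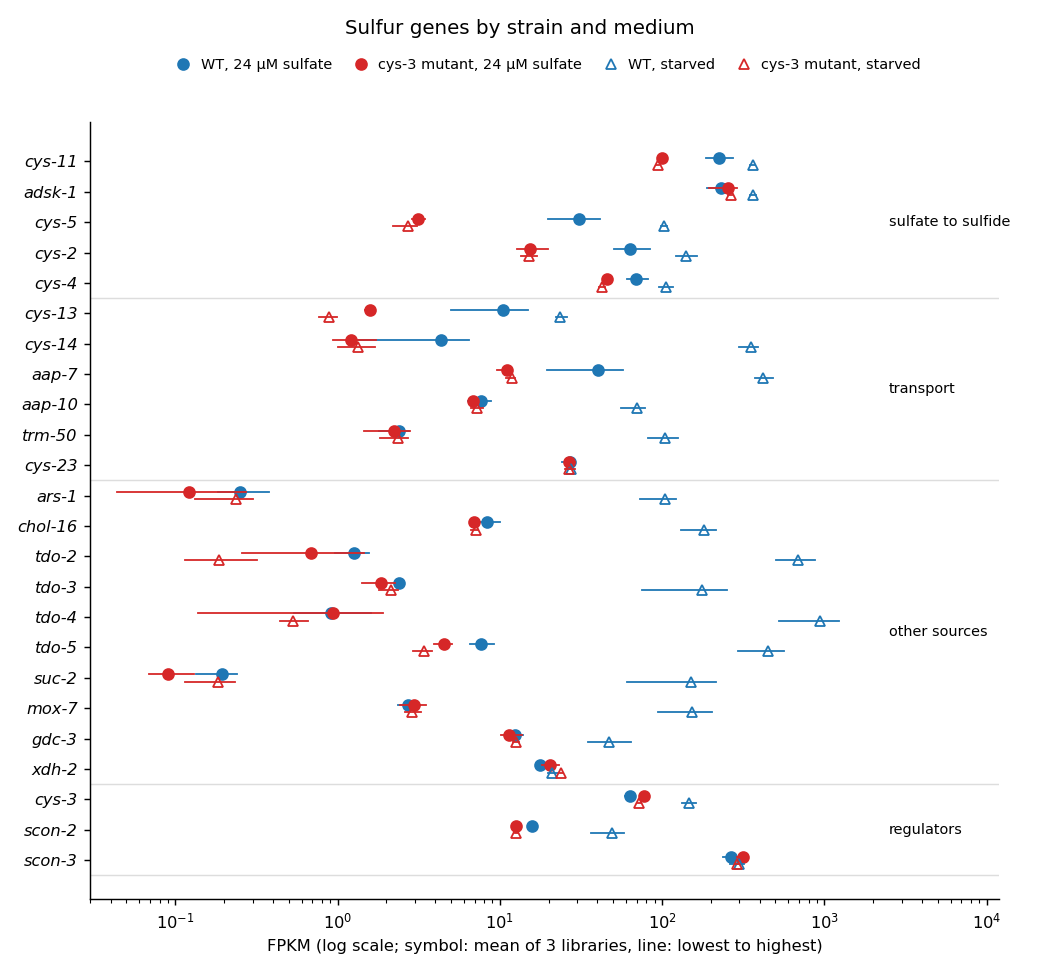
FPKM (log scale) of sulfur genes in the 4 groups, the symbol being the mean of 3 libraries and the line the range from the lowest to the highest. Filled circles are cells in 24 μM sulfate and open triangles starved cells, blue for wild type and red for the *cys-3-* mutant. For *cys-5* the wild-type mean is 30.97 FPKM in 24 μM sulfate, between 3.14 FPKM in the mutant and 103 FPKM in starved wild type, whereas for *ars-1* the wild-type mean in 24 μM sulfate is 0.250 FPKM.

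The same strains without sulfur, including the same mutant homokaryon, gave a separate set of 6 libraries. The calls in the 2 media are not independent, since 1 fit gave each gene a single estimate of its spread. All 8 genes called in 24 μM sulfate were also called between the starved strains, in the same direction (100% of the 8). Conversely, the starved strains differed in 181 genes (3.59% of those tested, 139 or 2.76% lower and 42 or 0.834% higher in the mutant), of which these 8 are 4.42%. For the 139 genes that were lower in the starved mutant, the median difference in 24 μM sulfate was -0.01, against -1.79 in starvation. The genes were chosen by their starvation values, so the -1.79 follows from that choice. Some passed the minimum only through starved wild type. At very low levels the log2(FPKM + 1) scale holds differences near 0 (*ars-1*, 2.06-fold lower in 24 μM sulfate, gave -0.16). These medians therefore do not compare effect sizes. In 24 μM sulfate, 23 of the 139 genes (16.5%) had mutant libraries entirely below wild type and 14 (10.1%) entirely above, against 7.45% each way over all tested genes.

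How much of the starved difference was already present in 24 μM sulfate varied by gene. For the pathway genes other than *adsk-1* the gap between the strain means in 24 μM sulfate was 45.7% (*cys-11*), 38.9% (*cys-13*), 38.2% (*cys-2*), 37.6% (*cys-4*) and 27.7% (*cys-5*) of the gap in starvation. For *adsk-1* the share was -22.3%, since its mutant mean was above wild type in 24 μM sulfate and below it in starvation. The share was 7.24% for *aap-7*, 4.99% for *cys-16*, 0.821% for *chol-16* and 0.123% for *ars-1*. These shares describe group means and were not tested. For *gst-4* the gap was 145%, since its wild-type mean was higher in 24 μM sulfate (36.4 FPKM) than in starvation (24.6 FPKM).

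A test of the change in the strain difference between media was passed by 6 of the 8 genes, in a fit where 13.9% of the tested genes passed. The strain difference of *aap-7* was more negative in starvation by -3.36 ± 0.39 on the log2(FPKM + 1) scale (SE; adjusted p = 1.2e-04). For *cys-5* the change was -1.93 ± 0.27 (adjusted p = 5.9e-04). It was -0.03 ± 0.24 for *gst-4* (adjusted p = 0.961) and 0.76 ± 0.24 for *cys-22* (adjusted p = 0.0527), neither of which passed. Within the mutant, none of the 8 genes passed the test between starvation and 24 μM sulfate, where 0.417% of the tested genes did. For *cys-2* the mutant means were 15.4 and 15.2 FPKM in 24 μM sulfate and starvation, and for *cys-11* they were 100.3 and 94.2 FPKM.

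Genes beside *cys-3* were examined because the cassette lies there. NCU03534 (chromosome II, 333578 to 334814) starts 2375 bp beyond the end of the *cys-3* locus. It had 0.0562, 0 and 0.0591 FPKM in wild type, at most 1 implied read in a library, and 10.7, 12.6 and 11.7 FPKM in the mutant. Against the FPKM of 3 reads, averaged over the wild-type libraries (0.198 FPKM), it was at least 59.2-fold higher in the mutant (adjusted p = 8.4e-07). Starved wild-type cells had 0.942, 2.1 and 1.77 FPKM and starved mutant cells 14.2, 11.4 and 14.4 FPKM.

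Among the 10 genes on each side of *cys-3*, 10 of the 20 were tested and only NCU03534 passed. The mutant libraries were entirely higher for 6 of the 20 and entirely lower for 0, against 7.45% each way over all tested genes. The heterokaryon incompatibility gene *het-6*, the next gene on the side of NCU03534, had 4.59, 6.89 and 4.78 FPKM in wild type and 9.39, 9.64 and 9.82 FPKM in the mutant. It stayed under 10 FPKM, and with a minimum of 1 FPKM it passed the test at 1.77-fold (difference of 0.74 ± 0.12 on the log2(FPKM + 1) scale, SE, adjusted p = 0.0351). Further along, *acw-6* had 435, 333 and 315 FPKM in wild type and 568, 504 and 556 FPKM in the mutant (adjusted p = 0.119). On the other side, *un-24* differed by 1.17-fold (adjusted p = 0.290) and NCU03537 by 1.35-fold (adjusted p = 0.207). The mutant and wild type differ in the cassette and in any other sequence by which the 2 strains differ, and these cannot be told apart here.

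**Figure D4:**
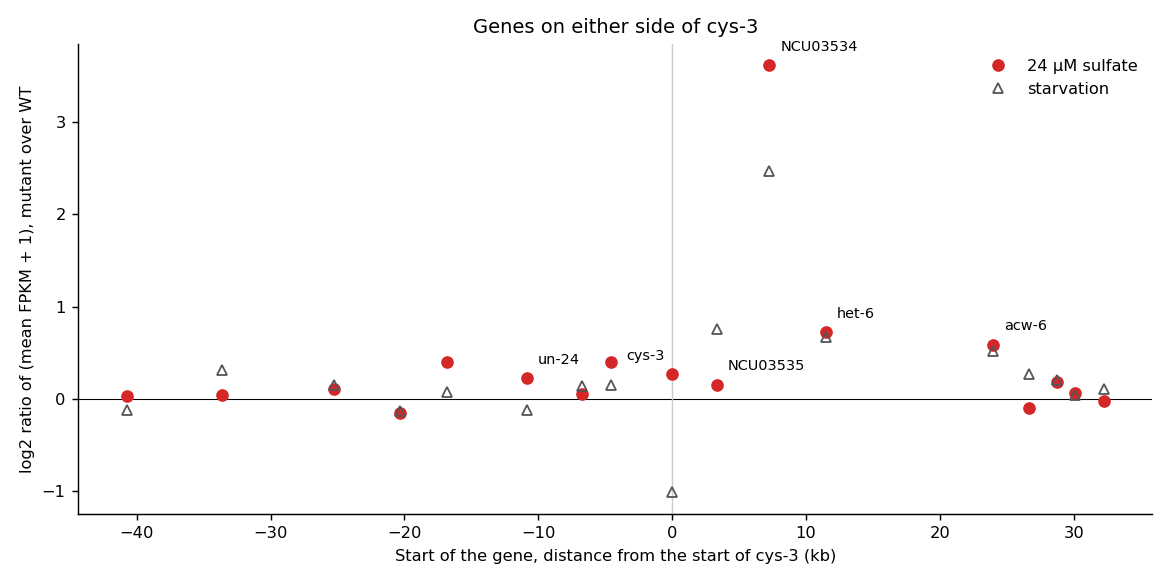
The x axis is the start of each gene relative to the start of *cys-3* (kb) for the genes within 10 on either side whose mean in 24 μM sulfate reached 1 FPKM in a strain, and the y axis the log2 ratio of (mean FPKM + 1), mutant over wild type. Red circles are cells in 24 μM sulfate and open triangles starved cells. NCU03534 stands above its neighbours in both media, and *cys-3* itself is above 0 in 24 μM sulfate and below 0 in starvation.

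The 4 genes that passed the test with a ratio under 2 were NCU06881, NCU08292, NCU09024 and NCU00995. NCU06881 had 35.9, 29.3 and 30.5 FPKM in wild type and 19.7, 20.03 and 21.1 FPKM in the mutant, 1.57-fold lower (adjusted p = 0.0199). It shares 230 bp with NCU06880, which did not pass (adjusted p = 0.271). NCU08292 had 11.9, 13.05 and 12.5 FPKM in wild type and 19.4, 19.9 and 17.2 FPKM in the mutant, 1.51-fold higher (adjusted p = 0.0196). It lies on chromosome IV near *mus-51*, the end-joining gene that is disrupted in many recipient strains for gene deletion in *N. crassa*, and *mus-51* itself had 9.98, 9.50 and 10.8 FPKM in wild type and 8.24, 10.7 and 10.4 FPKM in the mutant. The end-joining gene *mus-52* differed by 0.18 on the log2(FPKM + 1) scale, with overlap. Any link between NCU08292 and the *mus-51* locus was not tested. NCU09024 was 1.57-fold higher (adjusted p = 0.0314). NCU00995, the most abundant of the 4, had 559.9, 878 and 585 FPKM in wild type and 1075, 1254 and 1260.1 FPKM in the mutant, 1.77-fold higher (adjusted p = 0.0297). The ratios in the starved strains were 1.62, 1.26, 1.48 and 1.48, in the same directions.

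The genes bound by CYS-3 in vitro were taken from the study's list of genes with a binding peak upstream. Of its 643 genes, 363 were tested, 5 were called lower (1.38%; *cys-5*, *cys-13*, *aap-7*, *gst-4* and *cys-11*) and 0 higher, against 0.119% and 0.0397% over all tested genes. *cys-2* is the 1 lower gene outside the list. The median difference of the list was -0.01, and its mutant libraries were entirely lower in 36 genes (9.92%) and entirely higher in 22 (6.06%), near the 7.45% of all tested genes each way. In starvation 66 genes of the same list were called lower (18.2%, against 2.76% over all tested genes) and 3 higher (0.826%, against 0.834%).

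**Figure D5:**
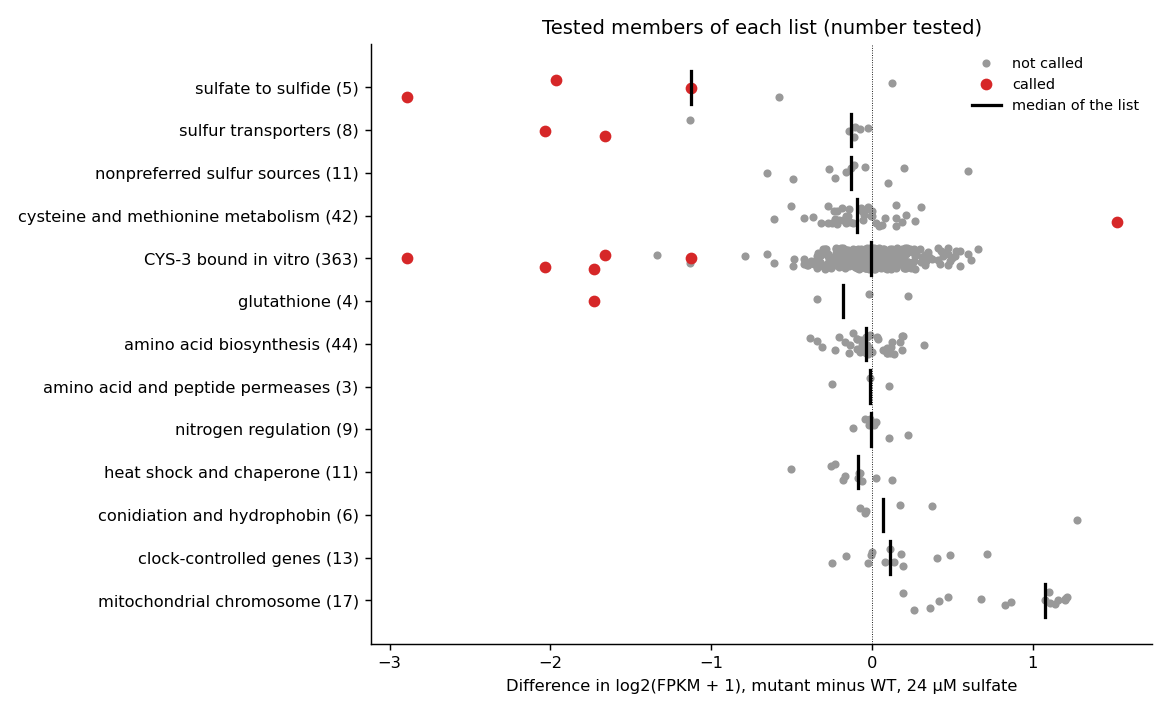
Difference in log2(FPKM + 1), mutant minus wild type in 24 μM sulfate, of each tested gene in 13 gene lists, with the number tested in parentheses. Each point is 1 gene, red where it was called, the black line is the median of the list, and the vertical spread of points carries no value. The median is -1.13 for the genes from sulfate to sulfide, -0.01 for genes bound by CYS-3 in vitro and 1.08 for genes of the mitochondrial chromosome.

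In lists for other processes no gene was called in 24 μM sulfate. Among 44 tested genes of amino acid biosynthesis, 11 of heat shock proteins and chaperones, 9 of nitrogen regulation and 3 amino acid permeases, 0 were called, with medians of -0.04, -0.09, -0.01 and -0.01. The list for amino acid biosynthesis was chosen by gene symbol and also holds tRNA synthetase genes. The mitochondrial chaperone gene *hsp60* had 170.1, 99.5 and 151 FPKM in wild type and 116, 88.6 and 86.4 FPKM in the mutant (adjusted p = 0.257).

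Of 17 tested genes of the mitochondrial chromosome, 0 passed the test. Their differences were positive, with a median of 1.08, and in 1 of the 17 (5.88%) the mutant libraries were entirely higher, against 7.45% over all tested genes. The NADH dehydrogenase subunit 1 gene NCU16018 had 2.67, 10.20 and 2.95 FPKM in wild type and 11.1, 9.67 and 12.5 FPKM in the mutant (adjusted p = 0.242). For this gene wild-type replicate 2 lay within the mutant range and the other wild-type libraries below it. The summed FPKM of the chromosome was 313 to 955 in wild type and 759 to 882 in the mutant. Without that library 12 of the 17 (70.6%) passed the test, all higher in the mutant, and the median was 1.60. In the same fit 392 of 5059 genes (7.75%) passed as higher and 318 (6.29%) as lower. Depth moved with this signal over the libraries, as given above, and its part was not tested.

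The libraries were also checked against markers of conidia, mating and growing hyphae. The hydrophobin gene *eas*, which coats conidia, had 6.83, 14.4 and 14.9 FPKM in wild type and 21, 36.9 and 31.4 FPKM in the mutant. It was entirely higher in the mutant, 2.47-fold in the means, and missed the test (adjusted p = 0.0813), but passed it without wild-type replicate 2 (adjusted p = 0.0163). Of 6 tested genes for conidiation and hydrophobin, 0 were called. Their median difference was 0.07, with 3 below 0 and 3 above 0. The summed FPKM of all 12 genes in this list, tested or not, was 160.0 to 188 in wild type and 185 to 220 in the mutant. The gene *fl*, a regulator of conidiation, had 9.25, 15.7 and 10.5 FPKM in wild type and 14.8, 16.8 and 14.3 FPKM in the mutant (adjusted p = 0.322). Of 13 tested clock-controlled genes, 0 were called (median of 0.11).

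The pheromone precursor gene *mfa-1* had 193, 57.5 and 76 FPKM in wild type and 20.6, 44.6 and 28.2 FPKM in the mutant. The groups did not overlap, but wild type spanned over 3-fold and the gene did not pass the test (adjusted p = 0.232). Without replicate 2 of wild type it passed (adjusted p = 0.0301). Between the starved strains *mfa-1* was called, 3.65-fold lower in the mutant (means of 98.1 and 26.9 FPKM, adjusted p = 0.0195 by limma). Genes of the opposite mating type, *matA-1*, *matA-2* and *matA-3*, were listed at 0 in each of the 12 libraries, and the pheromone gene *ccg-4* had at most 0.0951 FPKM. Markers of growing hyphae were *hex-1*, *cot-1*, *chs-1* and *gul-1*. The Woronin body gene *hex-1* had 2759.6, 3057 and 3087 FPKM in wild type and 3517, 3366 and 3476 FPKM in the mutant, all higher without passing the test (adjusted p = 0.232). With libraries left out in turn, log2 ratios ran from -0.0314 to 0.0597 for *cot-1* and from -0.0231 to 0.0646 for *chs-1*. Values of *gul-1* are not described here. The part of any of these markers in the 8 called genes was not tested.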

How the data were processed

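Poly(A) RNA from independent cultures was sequenced by the study. The authors deposited one FPKM value per gene and library, made with HISAT2, Cufflinks and Cuffnorm (versions 2.1.0, 2.2.1 and 2.2.1 in the submitters' processing notes). Read depth was implied from the confidence bounds beside the FPKM values. Counting used no strand, so overlapping genes cannot be told apart.

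Groups came from the labels. Differences in log2(FPKM + 1) were fitted with limma 3.58.1 (R 4.3.3, trended variance) in one model over the 4 groups of 3 libraries, for genes whose mean reached 10 FPKM in any group, after 4 genes with a failed status were dropped. The p-values were Benjamini-Hochberg adjusted over all tested genes. Folds are ratios of mean FPKM. A tested gene with means under 10 FPKM in both groups of a comparison could not be called there. With 3 against 3 libraries an exact permutation test cannot go below 0.1 (two-sided). The fit was tested on simulated data.

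Members and lists were chosen with earlier results of these data known. Named genes were, by rule, the called genes and the tested genes with the greatest ratios among those that passed, all members of the short sulfur lists, up to 3 leading members of each other list, 10 genes on each side of *cys-3* and, between 2 and 10 FPKM, the 5 greatest falls and rises without overlap. Hyphal markers and genes that overlap a named gene were added. Gene names came from RefSeq (NC12) and the study's tables. For 5 lists defined by product names no usable rule existed, and they were left out. The 17 alternatives changed the pseudocount, the minimum, the scaling, the fit or the libraries.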

Additional observations from a re-analysis of the deposited data

Results flagged for a closer look

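For 6 of the 8 genes called in 24 μM sulfate, the difference between the strains changed between media by a test of the change itself (limma, log2(FPKM + 1) scale, starvation minus 24 μM sulfate, adjusted over all tested genes, of which 13.9% passed). The mutant deficit was deeper in starvation for *aap-7* (-3.36, adjusted p = 1.2e-04), *cys-5* (-1.93, adjusted p = 5.9e-04), *cys-13* (-1.67, adjusted p = 0.0121), *cys-2* (-1.16, adjusted p = 0.0158) and *cys-11* (-0.81, adjusted p = 0.00511). For NCU03534, which was higher in the mutant, the difference was smaller in starvation on this scale (-1.13, adjusted p = 0.0156). Its means in 24 μM sulfate and starvation were 0.0384 and 1.61 FPKM in wild type, and 11.7 and 13.4 FPKM in the mutant. In 24 μM sulfate no wild-type library had over 1 implied read. In mean FPKM the gap in 24 μM sulfate was 99.1% of the gap in starvation. The libraries of the 2 media are separate cultures, and the strain differences within each medium share none. They do share the fit's estimate of the spread of each gene.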

How the results depend on the processing

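With 3 libraries a group, the 8 calls rest on few cultures. *cys-5*, *cys-2*, *gst-4*, *cys-22* and NCU03534 were called under all 17 alternatives, *cys-11* under 16, *cys-13* under 14 and *aap-7* under 10. Leaving out each library in turn gave 5 to 37 calls (3 to 10 lower and 2 to 27 higher), with 5 without wild type replicate 3 and 37 without wild type replicate 2. Array weights gave 14 calls, 6 of them higher, and 1458 genes with an adjusted p under 0.05 against 12; the cause was not tested. For *suc-2*, with at most 5 implied reads in a wild-type library in 24 μM sulfate, depth limits what difference could be detected.

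Deviations of libraries with the same replicate number in the 2 strains had correlations of 0.235, 0.449 and 0.0750 for replicates 1, 2 and 3. Replicates 1 and 2 of wild type and replicates 2 and 3 of the mutant correlated best with their own number. Replicate 3 of wild type and replicate 1 of the mutant did not. Whether the numbers pair the strains was not tested. A fit with the replicate block gave 8 calls, 6 lower and 2 higher, the same 8 genes.

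Directions reversed only in genes that did not pass the test. The log2 ratio of *tdo-4* was 0.037, but -0.044 on the log2(FPKM + 1) scale and -0.160 with quantile normalization, which also gave -0.00418 for *mox-7* and -0.00286 for *cot-1*. With libraries left out in turn, log2 ratios ran from -1.04 to 0.739 for *tdo-4*, -0.281 to 0.138 for *trm-50*, -0.103 to 0.0132 for *cys-23*, -0.000434 to 0.281 for *mox-7*, -0.112 to 0.0654 for *mus-51*, -0.0691 to 0.0481 for *pmg*, -0.0243 to 0.0832 for NCU03546, -0.0143 to 0.126 for NCU03538, -0.0433 to 0.0126 for NCU03526, -0.0314 to 0.0597 for *cot-1* and -0.0231 to 0.0646 for *chs-1*.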

Other observations

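Below the minimum for calling, 2203 genes had a mean of 2 to under 10 FPKM in at least 1 strain in 24 μM sulfate. Their mutant libraries were entirely lower than wild type in 113 genes (5.13%) and entirely higher in 220 (9.99%), against 7.45% each way over the genes tested. Among those lower, NCU10512, which the paper lists as a transporter gene, had 4.64, 5.26 and 9.94 FPKM in wild type and 1.03, 1.69 and 3.38 FPKM in the mutant (3.25-fold, adjusted p = 0.142 by limma). Its mean in starved wild type was 103 FPKM. NCU07046, of unknown function, had 2.90, 2.83 and 4.01 FPKM in wild type and 1.53, 1.47 and 1.32 FPKM in the mutant, with an adjusted p of 0.0872, or 0.0296 with a minimum of 1 FPKM (limma). NCU10512 and NCU07046 are in the list of genes bound by CYS-3 in vitro.

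Among those higher, NCU09532, annotated as an L-threo-3-deoxy-hexulosonate aldolase, had 0.695, 1.097 and 0.923 FPKM in wild type and 2.21, 3.18 and 1.86 FPKM in the mutant (2.67-fold). With a minimum of 1 FPKM it did not pass the test (adjusted p = 0.242, limma).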
